A study of Mus musculus with 11 samples.

Results

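Mitochondrial fatty acid oxidation was followed through 10 genes of the 54532 in the deposited count table. They were picked by gene symbol: the carnitine shuttle genes Cpt1a, Slc25a20 and Cpt2, the acyl-CoA dehydrogenase genes Acadvl, Acadl and Acadm, the trifunctional protein genes Hadha and Hadhb, the carrier gene Ucp2, and the pyruvate dehydrogenase phosphatase gene Pdp2. All 10 symbols matched 1 row each, and all 10 rows passed the filter on low counts that left 14113 genes for testing. The genes were named with results of these libraries already known. Pdp2 in particular was known from its fall in aged caerulein mice, and which values led to the other 9 is not recorded. Counts of called genes among the 10 are therefore a description and support nothing by themselves.

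Bulk polyadenylated RNA was sequenced from pancreas of C57BL/6JRj mice, 1 library per mouse by the labels. The mice fell into 4 groups. Young untreated mice (7 weeks, n = 3) and aged untreated mice (18 months, n = 2, labelled mouse 2 and mouse 3) received no treatment, and no transgene or deletion is labelled in any group. Young caerulein mice (7 weeks, n = 3) and aged caerulein mice (18 months, n = 3) received 125 µg/kg of caerulein intraperitoneally, in 4 hourly injections, and carry the label 5H. The series' design text puts extraction an hour after the first injection, which neither the 4 injections nor that label match, so the time of sampling is uncertain. Caerulein is an analogue of cholecystokinin that drives acinar secretion and at high dose injures the exocrine pancreas. P-values measure the spread between these mice. The whole organ was extracted, so fewer cells of a type and less RNA per cell cannot be told apart.

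Long-chain fatty acids enter the mitochondrial matrix as acyl-carnitines: the outer membrane enzyme CPT1A makes them, the carrier encoded by Slc25a20 moves them inwards, and CPT2 restores the acyl-CoA. Acyl-CoA dehydrogenases with preferences for very long, long and medium chains then take the first oxidation step, and the trifunctional protein, built of HADHA and HADHB subunits, carries long chains through the remaining steps of each cycle. UCP2 is an inner membrane carrier of the uncoupling protein family, best known in immune cells, islets and other tissues outside brown fat. PDP2 dephosphorylates and so activates the pyruvate dehydrogenase complex, the entry of carbohydrate carbon into the tricarboxylic acid cycle, and the pyruvate dehydrogenase kinases do the opposite.

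Total counts ran from 14223190 to 26537091 per library. Transcripts of 36 digestive enzyme and zymogen granule genes, which mark acinar cells, summed to 753494 to 839821 CPM of the library total in untreated mice and 593598 to 639341 CPM after caerulein, so the tissue label held in every library. The library of young untreated mouse 2 stood apart from all others. Its summed B cell and plasma cell markers were at 286 CPM against at most 5.38 CPM elsewhere, with all 12 genes of that list detected. T cell and NK cell markers there were at 158 CPM against at most 1.92 CPM, adipocyte markers at 729 CPM against at most 44.2 CPM, and macrophage markers at 507 CPM against at most 128 CPM. Values without this library are also given for many of the results it touches, though not for every gene or list. Scaling is the other limit on small changes: with library totals in place of TMM (trimmed mean of M-values) scaling, the median log2 change of all genes moved by 0.49 in the young and 0.62 in the aged caerulein comparison.

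Sequence around 2 of the loci is shown first, because Pdp2 fell furthest and because Hadha and Hadhb, whose transcript ratio separated caerulein from untreated mice, share their upstream region. Hadha lies at chr5:30118304-30155162 on the minus strand and Hadhb at chr5:30155248-30184593 on the plus strand of mm10, so the genes are transcribed away from each other across a gap of 85 bases. Pdp2 lies at chr8:104591451-104599026 on the plus strand. The lines give the gap (chr5:30155163-30155247, plus strand) and the 229 bases that end at the base before the deposited Pdp2 start (chr8:104591222-104591450, plus strand), both from RefSeq promoters on GRCm38.p6. Capitals in the gap mark the GC box, GGGCGG, on either strand. At Pdp2 they mark the same GC box, the E-box (CACGTG) and, further on, the box named after its letters, CCAAT.
Hadha-Hadhb gap: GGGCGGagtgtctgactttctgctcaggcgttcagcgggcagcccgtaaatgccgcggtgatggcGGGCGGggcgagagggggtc
Pdp2 upstream: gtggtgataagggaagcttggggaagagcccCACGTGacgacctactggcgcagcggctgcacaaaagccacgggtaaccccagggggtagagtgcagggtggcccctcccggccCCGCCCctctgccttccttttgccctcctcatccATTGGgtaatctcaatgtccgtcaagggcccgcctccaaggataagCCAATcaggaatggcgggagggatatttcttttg

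The gap is 69.4% G and C and held 2 GGGCGG matches. Over the 250 bases before each RefSeq start, GGGCGG was present on either strand for 8 of the 10 genes, all but Acadm and Acadvl, and for 32.7% of 32851 promoters in the same table. CACGTG was present for Pdp2 alone among the 10 and for 6.02% of all promoters. CCAAT was present for Cpt1a and Pdp2 (33.8% of all promoters), and AGGTCA, a nuclear receptor half-site, for Cpt1a, Acadm and Acadvl (14% of all promoters). TCAAGGTCA, which contains AGGTCA, was found for none of the 10 (0.387% of all), and neither were TGACGTCA (1.55%), TGANTCA (6.75%) or the NRF1 element (0.782%). The Hadha and Hadhb windows overlap, so their GGGCGG matches are partly the same bases. A match describes letters in a window and is not a site in use.

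Caerulein moved the pathway unevenly. Across the 10 genes, 6 passed the test in young mice, where 52.3% of all genes tested were called: 2 rose, Acadl and Acadvl (27.5% of all genes were called higher), and 4 fell, Cpt1a, Cpt2, Ucp2 and Pdp2 (24.7% of all were called lower). In aged mice 5 passed, where 48.2% of all genes were called: Cpt1a, Acadl and Acadvl rose (27% of all called higher), and Cpt2 and Pdp2 fell (21.2% of all called lower). Pdp2 was known from its fall in this aged contrast, so its part in every aged count given here was fixed in advance. The median log2 change of the 10 genes was -0.51 in young mice beside -0.06 over all genes, and 0.52 in aged mice beside 0.07. The young median moved with 1 library and with the scaling: it was -0.11 beside 0.01 over all genes without young untreated mouse 2, and -0.10 beside 0.43 with library totals alone, where the aged median was 1.13 beside 0.69. Libraries of the caerulein and untreated groups did not overlap for 6 of the 10 genes in young mice (57.3% of all genes) and for 8 in aged mice (71.2% of all genes). These counts lie near the background of the whole table and are no result about the 10 genes as a group. With library totals alone, 3 of the 10 were higher and 2 lower in young mice, and 5 higher and 1 lower in aged mice, while all genes split into 5314 higher and 1269 lower and into 5451 higher and 1074 lower (3888 and 3488, and 3806 and 2998, with TMM). Without young untreated mouse 2, 6 of the 10 passed in young mice, where 57.6% of all genes were called, and 7 in aged mice, where Hadha and Ucp2 joined and 58.3% of all genes were called. The authors' deposited table for the young comparison has 2 of the 10 higher and 4 lower at an adjusted p below 0.05, and the authors' deposited table for the aged one has 5 higher and 2 lower.

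**Figure D1:**
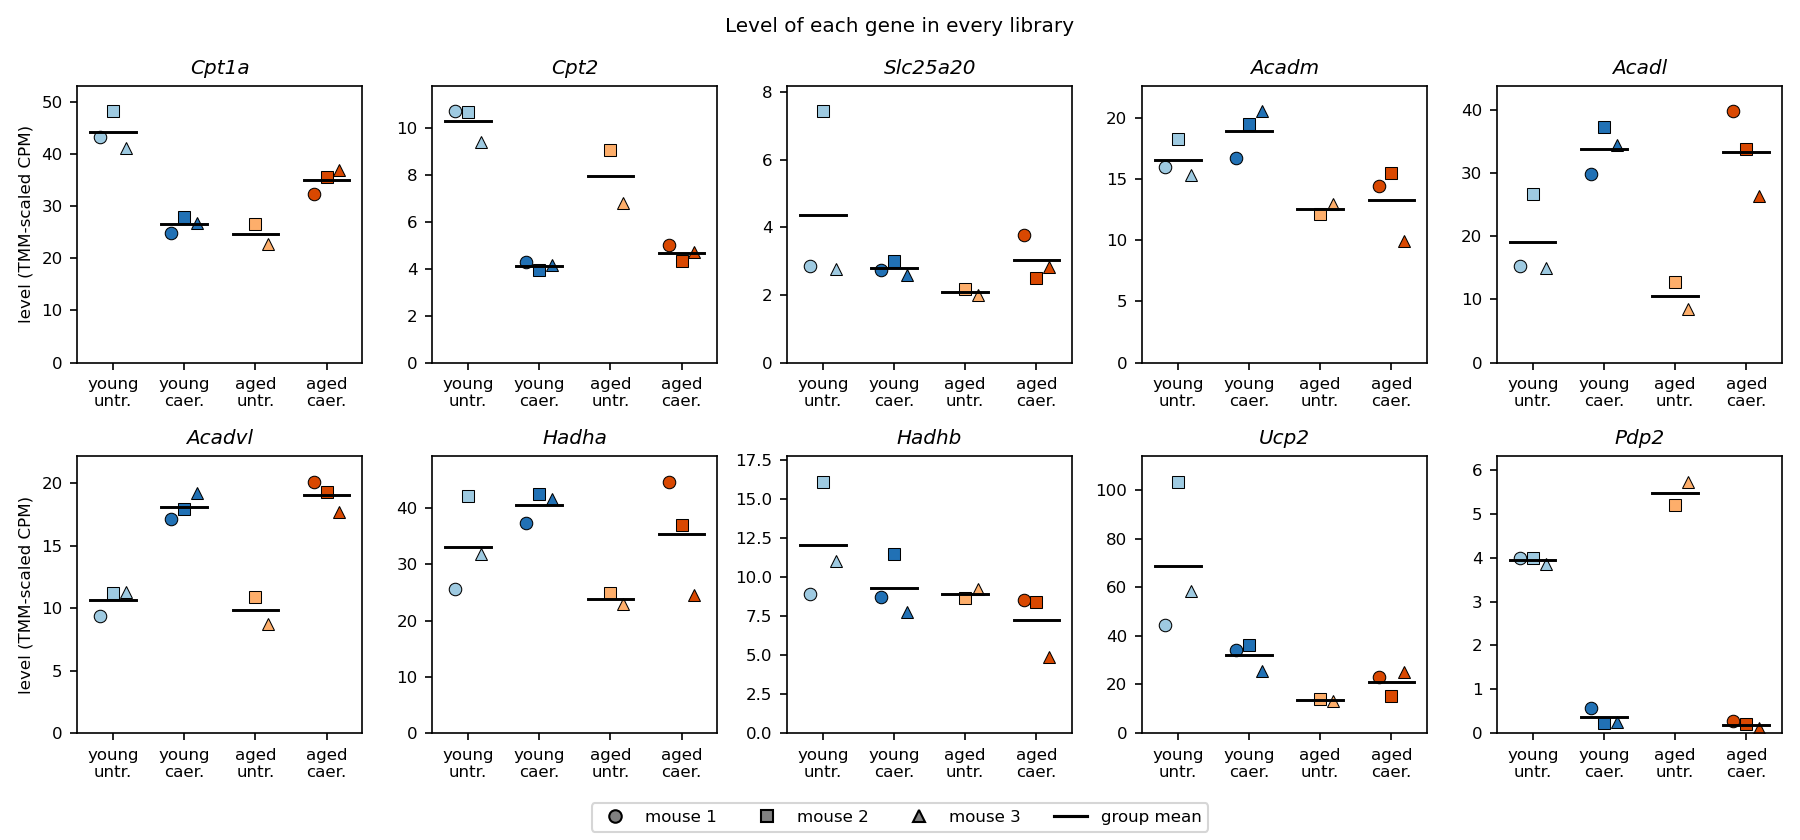
Level of each of the 10 genes in TMM-scaled CPM (vertical axes from 0, 1 scale per gene) for every library, grouped by age and treatment, with symbols for the mouse number and a line at the group mean. Pdp2 lies below 1 CPM in all 6 caerulein libraries and above 3 CPM in all 5 untreated ones, and young untreated mouse 2 (pale square) is the highest library of its group for Slc25a20, Acadl and Ucp2.

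Cpt1a (chr19:3323301-3385732, plus strand), which encodes the malonyl-CoA-sensitive entry enzyme of the shuttle, changed in opposite directions at the 2 ages. Its levels were 43.2, 48.2 and 41.1 CPM in young untreated mice 1 to 3 and 26.6 and 22.7 CPM in aged untreated mice 2 and 3. After caerulein they were 24.9, 28.0 and 26.8 CPM in young and 32.3, 35.6 and 37.0 CPM in aged mice. Untreated and caerulein libraries did not overlap at either age: all young mice were lower after caerulein and all aged mice higher. The log2 change was -0.74 ± 0.11 (SE) in young mice (adjusted p = 2.54e-04) and 0.51 ± 0.13 in aged mice (adjusted p = 0.00682). The young fall was -0.26 (adjusted p = 0.378) with library totals alone, and the aged rise was 0.42 (adjusted p = 0.0781) without aged untreated mouse 3.

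The untreated groups set where these changes started. Cpt1a was lower in aged than in young untreated mice by -0.85 ± 0.13 (adjusted p = 0.048), in a comparison that called 13 genes of 14113 (0.0921%). Cpt1a and Ucp2 were the 2 of the 10 genes called there, both lower in aged mice as were 0.0354% of all genes, and 5 of the 10 had an unadjusted p under 0.05, as had 9.35% of all genes. Over all genes the 13 calls became 2 without either aged untreated library and 55 without young untreated mouse 2. Both calls are fragile: Cpt1a passed in 5 and Ucp2 in 7 of 19 alternatives, and leaving out 1 library kept Cpt1a called only without young untreated mouse 2, and Ucp2 only without young untreated mouse 1 or mouse 2. Groups did not overlap for 8 of the 10, and for 23.2% of all genes. The aged caerulein comparison uses the same 2 aged untreated libraries, so the low aged level and the aged rise are not separate observations. After caerulein, Cpt1a stood 0.40 ± 0.11 higher in aged than in young mice on the log2 scale (adjusted p = 0.0813), with no overlap between the groups. The difference between the aged and young caerulein responses was 1.24 ± 0.17 (unadjusted p = 1.56e-05, adjusted p = 0.0598), short of the threshold in a comparison that called 2 genes in all (0.0142%). Without young untreated mouse 2 it was 1.16 (adjusted p = 0.00382). Only 9 genes of 14113 (0.0638%) were called in opposite directions at the 2 ages, and Cpt1a was 1 of them.

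Cpt2 (chr4:107903981-107923610, minus strand), whose product completes the shuttle on the matrix side, fell at both ages. Young untreated mice were at 10.7, 10.7 and 9.44 CPM and aged untreated mice at 9.07 and 6.82 CPM, against 4.31, 3.95 and 4.16 CPM in young and 5.00, 4.34 and 4.72 CPM in aged caerulein mice. Every caerulein library was below every untreated library. The fall was -1.31 ± 0.15 (adjusted p = 3.10e-05) in young and -0.75 ± 0.17 (adjusted p = 0.0032) in aged mice. The aged value was -0.52 (adjusted p = 0.0635) without aged untreated mouse 2 and -0.16 (adjusted p = 0.679) with library totals alone, whereas the young fall passed in all 19 alternatives.

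Slc25a20 (chr9:108662088-108684641, plus strand), the carrier between the CPT enzymes, passed in no comparison. It was at 2.87, 7.43 and 2.76 CPM in young untreated, 2.18 and 2.00 in aged untreated, 2.74, 3.00 and 2.60 in young caerulein and 3.78, 2.49 and 2.83 CPM in aged caerulein mice. Young untreated mouse 2 was 2.64 times the mean of the other 2 mice of its group, the highest such ratio among the 10 genes, and the other 10 libraries lay between 2.00 and 3.78 CPM. The young log2 difference was -0.65 ± 0.36 (adjusted p = 0.149) with that library and -0.07 (adjusted p = 0.832) without it. Aged caerulein mice were 0.54 ± 0.42 higher (adjusted p = 0.324), with no overlap between groups.

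Among the 3 dehydrogenase genes, Acadvl and Acadl rose with caerulein and Acadm did not pass. Acadvl (chr11:70010183-70015411, minus strand), for very long chains, was at 9.39, 11.2 and 11.3 CPM in young untreated and 10.9 and 8.72 in aged untreated mice, and at 17.2, 17.9 and 19.2 CPM in young and 20.1, 19.3 and 17.7 CPM in aged caerulein mice. No caerulein library came near an untreated one, and the rise was 0.77 ± 0.12 (adjusted p = 3.80e-04) in young and 0.96 ± 0.14 (adjusted p = 2.37e-04) in aged mice. Both rises passed in all 19 alternatives.

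Acadl (chr1:66830839-66863277, minus strand), for long chains, rose more in aged mice in point estimate. It was at 15.3, 26.7 and 15.0 CPM in young untreated and 12.7 and 8.45 CPM in aged untreated mice, and at 29.9, 37.3 and 34.4 CPM in young and 39.8, 33.9 and 26.3 CPM in aged caerulein mice. The groups did not overlap at either age. The change was 0.83 ± 0.24 (adjusted p = 0.0143) in young and 1.67 ± 0.29 (adjusted p = 7.01e-04) in aged mice, and the difference between them did not pass (0.84 ± 0.37, adjusted p = 0.391). Young untreated mouse 2 lay 1.76 times above the other 2 of its group, and without it the young rise was 1.11. The young call was lost when young untreated mouse 1 (0.68, adjusted p = 0.0514), young untreated mouse 3 (0.68, adjusted p = 0.0506) or young caerulein mouse 2 (0.75, adjusted p = 0.0502) was left out.

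Acadm (chr3:153922357-153944632, minus strand), for medium chains, passed with caerulein at neither age. It was at 16.02, 18.3 and 15.4 CPM in young untreated, 12.2 and 13.0 in aged untreated, 16.8, 19.6 and 20.6 in young caerulein and 14.5, 15.5 and 9.94 CPM in aged caerulein mice. Caerulein and untreated libraries overlapped at both ages, with differences of 0.19 ± 0.16 (adjusted p = 0.332) and 0.08 ± 0.19 (adjusted p = 0.749). With library totals alone it was higher and passed at both ages (0.67 and 0.68, adjusted p = 0.0301 and 0.0493). After caerulein, every aged mouse was below every young mouse (-0.51 ± 0.16, adjusted p = 0.118). That difference passed without young untreated mouse 2 (-0.53, adjusted p = 0.0242), a library of neither group that enters through the shared estimate of the spread.

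Hadha and Hadhb encode the alpha and beta subunits of the trifunctional protein. Hadha was at 25.6, 42.1 and 31.8 CPM in young untreated, 24.9 and 22.9 in aged untreated, 37.4, 42.5 and 41.6 in young caerulein and 44.7, 37.0 and 24.6 CPM in aged caerulein mice. Hadhb was at 8.94, 16.1 and 11.1 CPM in young untreated, 8.65 and 9.21 in aged untreated, 8.71, 11.5 and 7.74 in young caerulein and 8.55, 8.38 and 4.88 CPM in aged caerulein mice. Young untreated mouse 2 was the highest of its group for both, and aged caerulein mouse 3 the lowest of its group for both. Neither gene passed: Hadha was 0.29 ± 0.22 (adjusted p = 0.286) and 0.57 ± 0.25 (adjusted p = 0.0805) higher after caerulein in young and aged mice, and Hadhb -0.37 ± 0.26 (adjusted p = 0.241) and -0.29 ± 0.29 (adjusted p = 0.446). With library totals alone the Hadhb differences turned to 0.06 and 0.30, also without passing. In aged mice Hadha passed with library totals alone (1.16, adjusted p = 0.0168), without young untreated mouse 2 (0.51, adjusted p = 0.0337) and without aged caerulein mouse 3 (0.77, adjusted p = 0.0147).

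The balance of the 2 subunit transcripts within a library differed between caerulein and untreated mice, although neither gene passed alone. The ratio of Hadha to Hadhb FPKM (fragments per kilobase of transcript, scaled for depth by the authors) does not depend on library scaling. It was 2.16, 1.98 and 2.17 in young untreated mice and 2.17 and 1.88 in aged untreated mice, against 3.24, 2.80 and 4.06 in young and 3.95, 3.33 and 3.80 in aged caerulein mice. All 6 caerulein libraries were above all 5 untreated ones, young untreated mouse 2 included. Such separation was common: among all pairs of 13092 genes, the FPKM ratio separated caerulein from untreated libraries for 55.4% of pairs in young and 70% in aged mice, so it is not particular to these subunits. The geometric means were 2.10 and 2.02 without and 3.33 and 3.69 with caerulein, for young and aged mice. The exact two-sided permutation p was 0.1 at each age, the smallest that 3 against 3 or 2 against 3 mice can give, and 0.145 after Benjamini-Hochberg adjustment over the 16 ratio comparisons made. Between ages the ratio overlapped in both treatments.

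**Figure D2:**
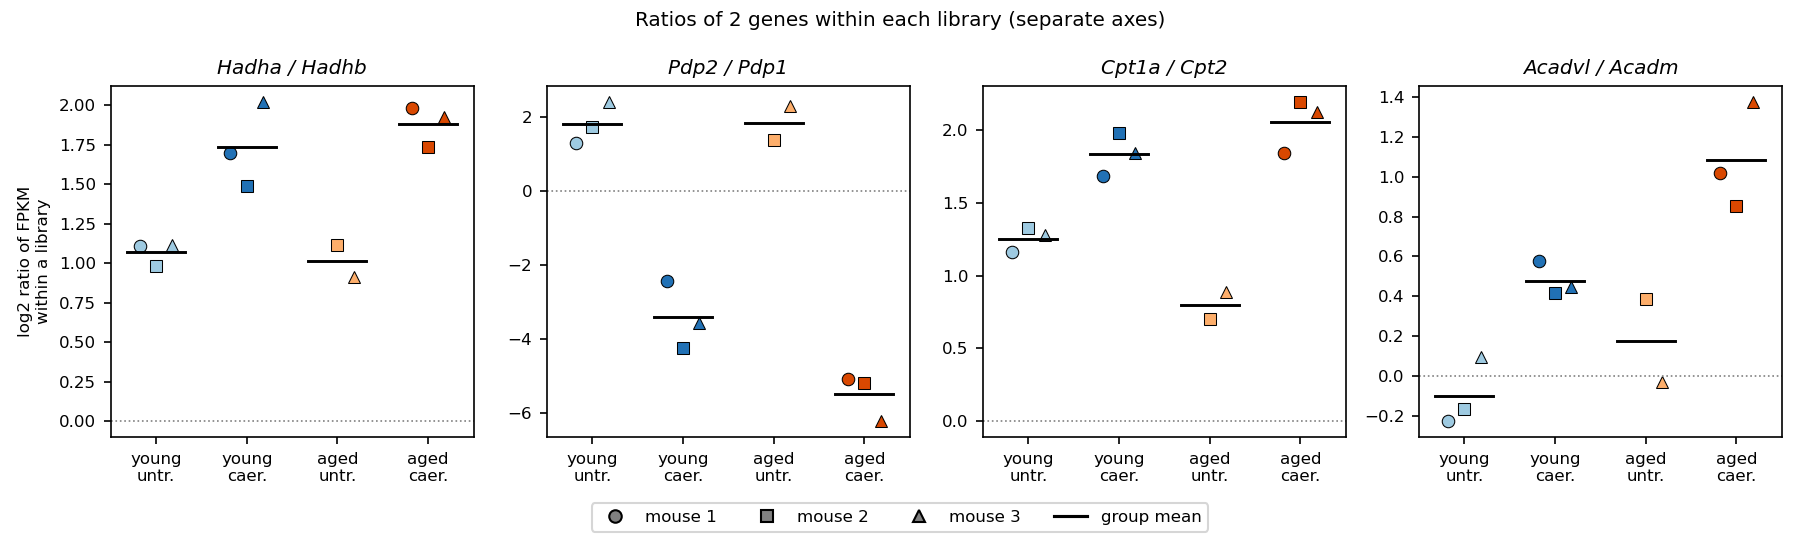
Log2 ratio of the deposited FPKM of 2 genes within each library (vertical axis, 1 scale per panel) by group, with symbols for the mouse number, a line at the group mean and a dotted line where both genes are equal. Hadha over Hadhb, Cpt1a over Cpt2 and Acadvl over Acadm are higher, and Pdp2 over Pdp1 lower, in every caerulein library than in every untreated library of the same age.

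Ratios within the shuttle and among the dehydrogenases moved likewise. Cpt1a over Cpt2 had geometric means of 2.39 in young untreated, 1.73 in aged untreated, 3.56 in young caerulein and 4.15 in aged caerulein mice. It ranged from 2.24 to 2.50, 1.63 to 1.85, 3.21 to 3.94 and 3.59 to 4.57 in these groups, so caerulein and untreated mice were apart at each age, as were the untreated age groups, while the 2 caerulein groups overlapped. Acadvl over Acadm had geometric means of 0.933, 1.13, 1.39 and 2.12 in the same order. Its untreated age groups overlapped, and aged caerulein mice (1.81 to 2.60) were above young caerulein mice (1.33 to 1.49). Of the 16 ratio comparisons, 11 had groups that did not overlap, beside 44.5% of the same 4 comparisons over all gene pairs (23.3% between untreated ages and 29.3% between ages after caerulein). The 11 include Pdp2 over Pdp1 with caerulein in aged mice and between ages after caerulein. Both use the aged caerulein Pdp2 values through which that gene was known, so they are a description only. Each of the others had the smallest p possible (exact permutation p = 0.1, adjusted 0.145).

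Ucp2 (chr7:100493337-100502020, plus strand) had the widest spread among untreated mice. It was at 44.6, 104 and 58.3 CPM in young untreated and 14.2 and 13.1 CPM in aged untreated mice, and at 34.3, 36.1 and 25.4 CPM in young and 23.2, 15.3 and 25.1 CPM in aged caerulein mice. Each of the 4 pairs of groups compared was without overlap: aged untreated mice were lowest, young untreated mice highest, and the caerulein groups lay between. The young fall was -1.11 ± 0.29 (adjusted p = 0.00767), the aged difference was 0.64 ± 0.34 (adjusted p = 0.143), and aged untreated mice were lower than young ones by -2.34 ± 0.36 (adjusted p = 0.048). The aged caerulein and untreated age values share the aged untreated mice, and the young caerulein and untreated age values share the young untreated mice.

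Immune and fat markers moved with Ucp2 in 1 library. Young untreated mouse 2, the library with 507 CPM of macrophage markers, had 2.01 times the Ucp2 level of the other 2 young untreated mice. Without it, the young fall was -0.74 (adjusted p = 0.00443), the aged difference 0.58 (adjusted p = 0.0325) and the untreated age difference -1.93 (adjusted p = 0.00223). The summed macrophage markers of the remaining young untreated mice were 36.4 and 47.5 CPM and those of the aged untreated mice 59.0 and 47.3 CPM. Islet markers, another known site of Ucp2, ran from 264 to 1904 CPM in young untreated and from 240 to 769 CPM in aged untreated mice, and the part of either marker list in the result was not tested. The young fall did not pass with library totals alone (-0.70, adjusted p = 0.186).

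The responses of Ucp2 differed between ages by 1.75 ± 0.44 (unadjusted p = 0.00236, adjusted p = 0.18), which did not pass. Without young untreated mouse 2 the difference was 1.31 (adjusted p = 0.0319). Cpt1a and Ucp2 were the 2 genes of the 10 whose libraries were without overlap at both ages in opposite directions, as were 114 genes of all tested (0.808%). For the other 8 genes the difference between ages did not pass either. The estimates ran from -1.30 ± 0.54 for Pdp2 to 1.19 ± 0.56 for Slc25a20 (adjusted p = 0.41). No p is given for the Pdp2 value, because it uses the aged caerulein contrast through which that gene was known. Across the 10 genes, 5 had an unadjusted p under 0.05 in this comparison, as had 12.5% of all genes. Any part of Pdp2 in that count is a description only.

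**Figure D3:**
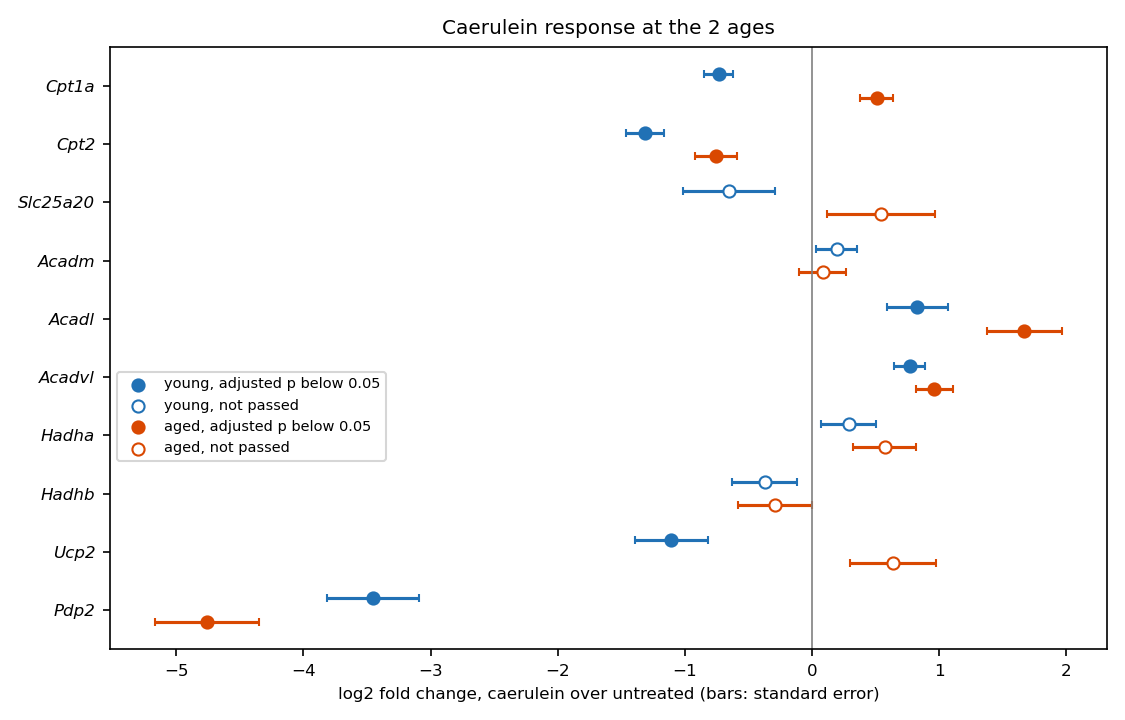
Log2 fold change of caerulein over untreated mice (horizontal axis) with its standard error (bars) for the 10 genes, in young mice (blue) and aged mice (orange), filled where the adjusted p was below 0.05. Cpt1a is filled on opposite sides of 0 at the 2 ages, and Pdp2 lies at -3.45 in young and -4.76 in aged mice. The aged Pdp2 point is the contrast through which that gene was known, so its fill is a description only.

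Pdp2 fell furthest of the 10 genes. It was at 3.99, 4.00 and 3.86 CPM in young untreated and 5.21 and 5.74 CPM in aged untreated mice, against 0.57, 0.24 and 0.26 CPM in young and 0.27, 0.19 and 0.11 CPM in aged caerulein mice. These are read counts of 62 to 106 per untreated library, 5 to 13 per young caerulein library and 2 to 7 per aged caerulein library. The caerulein and untreated libraries stood far apart at both ages, and the caerulein levels rest on few reads. The log2 change was -3.45 ± 0.36 in young mice (adjusted p = 1.59e-05) and -4.76 ± 0.41 in aged mice, the contrast through which the gene was known, so no p is given for it. Over the 19 alternatives the young value ran from -3.96 to -2.95 and passed in each, and the aged value ran from -5.09 to -4.17, given as a description only. Untreated aged mice were higher than untreated young mice in every library (0.47 ± 0.34, adjusted p = 0.658), which did not pass.

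Pdp1, the gene of the other catalytic phosphatase subunit, went the other way. Its level was 0.942 ± 0.359 CPM (SD, n = 3) in young untreated and 1.26 ± 0.478 CPM (n = 2) in aged untreated mice, and 2.79 ± 0.634 CPM (n = 3) and 6.43 ± 0.775 CPM (n = 3) after caerulein. It rose by 1.56 ± 0.32 (adjusted p = 0.00211) in young and 2.37 ± 0.38 (adjusted p = 3.89e-04) in aged mice. The ratio of Pdp2 to Pdp1 FPKM within a library was 2.44, 3.30 and 5.31 in young untreated and 2.58 and 4.94 in aged untreated mice. After caerulein it was 0.187, 0.0534 and 0.0842 in young and 0.0296, 0.0275 and 0.0134 in aged mice. Pdp2 was thus the more abundant phosphatase transcript per length in all 5 untreated libraries and Pdp1 in all 6 caerulein libraries. The ratio was lower in every aged than in every young caerulein mouse. No p is given for that difference, because it uses the aged caerulein values through which Pdp2 was known. Pdp2 alone overlapped between these groups (0.24 to 0.57 CPM in young and 0.11 to 0.27 CPM in aged mice), on 5 to 13 and 2 to 7 reads, while mean Pdp1 was 2.79 and 6.43 CPM.

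The other genes that control pyruvate dehydrogenase were split. In a list of 13 genes of the complex and its regulators, written from general knowledge, 4 were higher, 4 lower and 5 not passed in young mice, and 4 were higher, 5 lower and 4 not passed in aged mice. The list's median was -0.13 in young and -0.34 in aged mice, and with library totals alone 6 were higher and 1 lower, and 5 higher and 1 lower, with medians of 0.38 and 0.28. Pdk4, a kinase gene induced in fasting, rose from 2.56 ± 1.67 to 17.0 ± 3.83 CPM in young mice (2.69 ± 0.39, adjusted p = 1.77e-04) and from 0.444 ± 0.322 to 17.9 ± 3.46 CPM in aged mice (5.45 ± 0.62, adjusted p = 3.13e-05). Young untreated mouse 2 had 2.73 times the Pdk4 level of the other 2 mice of its group, and without it the young rise was 3.33 ± 0.30 (adjusted p = 4.43e-07). Pdk1, a kinase gene induced in hypoxia, fell (-1.84 ± 0.25 and -1.83 ± 0.27, adjusted p = 1.14e-04 and 2.21e-04). Pdk3 fell (-0.67 ± 0.23 and -1.38 ± 0.26, adjusted p = 0.0289 and 0.00109), though at neither age with library totals alone. Pdk2 did not pass (0.12 ± 0.15 and 0.35 ± 0.17, adjusted p = 0.528 and 0.121), but it was higher and passed at both ages with library totals alone (0.67 and 0.97, adjusted p = 7.36e-04 and 1.60e-04) and in aged mice without young untreated mouse 2 (0.28, adjusted p = 0.0196). Pdha1, the gene of the subunit that these enzymes modify, rose by 0.59 ± 0.11 and 0.66 ± 0.12 (adjusted p = 7.85e-04 and 0.001), and Dld, the shared dihydrolipoamide dehydrogenase, by 0.65 ± 0.12 in young mice (adjusted p = 8.91e-04).

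Other genes of mitochondrial beta-oxidation and carnitine handling numbered 23, of which 22 were tested. In young mice 4 were higher, 7 lower and 11 not passed, and in aged mice 2 were higher, 9 lower and 11 not passed. The list medians were -0.35 and -0.53, beside -0.06 and 0.07 over all genes. Scaled by library totals alone, 6 were higher and 2 lower at each age. The medians were then 0.17 and 0.07, beside 0.43 and 0.69 over all genes. The balance of directions in this list thus depends on the scaling. Its median lay below that of all genes under both scalings. The activating enzymes diverged. Acsl4, which prefers polyunsaturated chains such as arachidonate, rose from 5.74 ± 0.99 to 26.7 ± 3.39 CPM in young mice (2.21 ± 0.17, adjusted p = 1.57e-06) and to 38.7 ± 6.26 CPM in aged mice (2.58 ± 0.20, adjusted p = 2.33e-06). Acsl1, a major long-chain acyl-CoA synthetase, fell (-1.56 ± 0.27 in young mice, adjusted p = 6.21e-04), as did Acsl6 (-2.25 ± 0.37 in aged mice, adjusted p = 4.19e-04). Young untreated mouse 2 had 49.3 CPM of Acsl1, 2.16 times the mean of the other 2 mice of its group. With library totals alone Acsl1 was at -1.17 in young mice (adjusted p = 0.0311) and did not pass in aged mice (-0.81, adjusted p = 0.154). Acsl5 rose by 0.77 ± 0.11 in young mice (adjusted p = 2.02e-04).

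Enzymes later in the cycle moved unevenly on the TMM scale. Hadh, the short-chain hydroxyacyl-CoA dehydrogenase, was at -0.79 ± 0.16 in young and -0.995 ± 0.18 in aged mice (adjusted p = 0.0017 and 7.69e-04). Echs1, the short-chain enoyl-CoA hydratase, was at -1.27 ± 0.20 and Eci1, an enoyl-CoA isomerase, at -0.98 ± 0.16 in aged mice (adjusted p = 3.61e-04 and 4.06e-04). With library totals alone the Hadh falls did not pass (-0.25 and -0.39), nor did that of Eci1 (-0.37). Acaa2, the thiolase gene of the last step, named here after its values were seen, went the other way in young mice (0.88 ± 0.26, adjusted p = 0.0137) and did not pass in aged mice (0.55 ± 0.29, adjusted p = 0.146), where it passed with library totals alone (1.12, adjusted p = 0.0124). Acads, for short chains, rose in young mice (0.46 ± 0.15, adjusted p = 0.0264) and did not pass in aged mice (0.28 ± 0.18, adjusted p = 0.215), except with library totals alone (0.88, adjusted p = 0.0304). The genes that pass electrons on from the dehydrogenases mostly did not pass: Etfa was at -0.29 ± 0.13 and -0.30 ± 0.15, Etfdh at 0.22 ± 0.15 and 0.41 ± 0.17, and Etfb fell in aged mice (-0.64 ± 0.23, adjusted p = 0.0363), not with library totals alone. Under that scaling Etfdh was higher and passed at both ages (0.72 and 1.00, adjusted p = 0.0145 and 0.0052), and without young untreated mouse 2 Etfa was lower and passed at both (-0.42 and -0.36, adjusted p = 0.00859 and 0.0215). Cpt1b, the muscle isoform of the entry enzyme, had at most 6 reads in any library and was not tested.

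Peroxisomal fatty acid oxidation, which shortens very long chains, had 12 of its 14 genes tested: 2 higher and 8 lower in young mice, and none higher and 5 lower in aged mice (medians -0.64 and -0.70). Without young untreated mouse 2 the young median was -0.42, with 2 of 11 higher and 6 lower. With library totals alone the young count was 3 higher and 3 lower and the aged count 4 higher and 2 lower. The medians were then -0.14 and -0.07, beside 0.43 and 0.69 over all genes. Here too the balance of directions depends on the scaling. The list medians lay below those of all genes under both scalings (-0.06 and 0.07 over all genes with TMM). Scp2, a peroxisomal thiolase and sterol carrier gene, fell (-1.49 ± 0.13 in young and -1.44 ± 0.15 in aged mice, adjusted p = 4.75e-06 and 1.51e-05). Ehhadh, the bifunctional enzyme gene, fell in aged mice (-1.75 ± 0.21, adjusted p = 4.62e-05), and Acox3, an acyl-CoA oxidase gene, was at -0.83 ± 0.13 and -1.15 ± 0.15 (adjusted p = 3.75e-04 and 8.54e-05), not passed at either age with library totals alone. The tricarboxylic acid cycle, which takes up the acetyl-CoA, had 3 of 17 genes higher and 7 lower in young mice, and 3 higher and 12 lower in aged mice (medians -0.31 and -0.53). Dlst rose (0.79 ± 0.11 and 0.83 ± 0.13, adjusted p = 1.69e-04 and 3.29e-04) and Sdhb fell in aged mice (-1.27 ± 0.15, adjusted p = 3.52e-05). The cycle's counts with library totals alone were 5 higher and 0 lower in young mice, and 3 higher and 3 lower in aged mice. The cycle's medians were then 0.21 and 0.08, again beside 0.43 and 0.69 over all genes. Without young untreated mouse 2 the counts were 3 higher and 12 lower, and 2 higher and 14 lower.

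**Figure D4:**
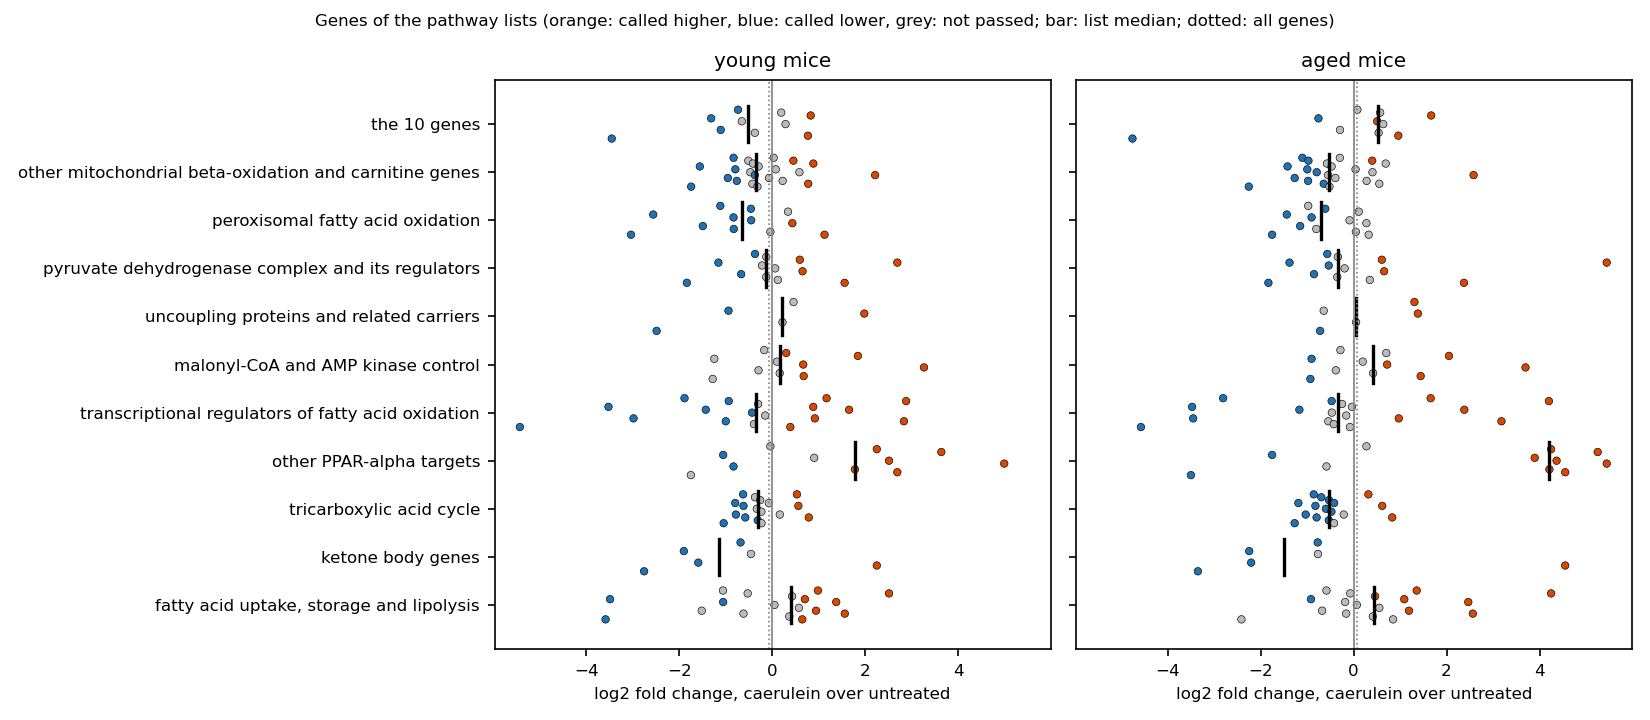
Log2 fold change of caerulein over untreated mice (horizontal axis) for every tested gene of 11 lists, the 10 genes on top, in young (left) and aged mice (right). Colours mark adjusted p below 0.05 (orange higher, blue lower) and grey the genes that did not pass, bars mark the list median and the dotted line the median of all genes; the PPAR-alpha target list has the highest medians, 1.78 in young and 4.21 in aged mice, or 3.14 and 4.17 without young untreated mouse 2.

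PPAR-alpha is the nuclear receptor that induces fatty acid oxidation genes in fasting liver. Ppara itself fell from 3.51 ± 1.13 to 0.942 ± 0.161 CPM in young mice (-1.89 ± 0.31, adjusted p = 4.22e-04) and from 3.99 ± 0.645 to 0.563 ± 0.103 CPM in aged mice (-2.81 ± 0.35, adjusted p = 6.02e-05). From a list of 14 other targets, the 11 tested had 6 higher and 2 lower in young mice, and 7 higher and 2 lower in aged mice (medians 1.78 and 4.21). Without young untreated mouse 2 they were 3.14 and 4.17 over the 10 genes then tested, with 7 higher and 2 lower at each age. Scaled by library totals alone, the counts were 6 higher and 0 lower, and 8 higher and 2 lower. Pdk4 and Ehhadh stand in this list as well as in those above. Txnip, a glucose-responsive inhibitor of thioredoxin, rose by 3.64 ± 0.20 and 4.37 ± 0.25 (adjusted p = 1.42e-07 and 2.84e-07). Acot1, an acyl-CoA thioesterase, rose by 4.99 ± 0.80 in young mice (adjusted p = 3.53e-04, and 5.73 without young untreated mouse 2), and Plin2, a lipid droplet coat protein, by 2.51 ± 0.51 and 4.25 ± 0.72 (adjusted p = 0.0019 and 5.46e-04). The Acot1 rise starts from few reads: 0.759 CPM in young untreated mouse 2 and a mean of 0.257 CPM in the rest of its group. Plin2 was also 5.12 times higher in young untreated mouse 2, the library with high fat markers, than in the other 2 mice of its group. Without that library the young rise of Plin2 was 3.75 ± 0.24 (edgeR, adjusted p = 2.15e-08).

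Among 18 transcriptional regulators of the pathway, 7 were higher and 8 lower in young mice, and 5 higher and 6 lower in aged mice. Scaled by library totals alone, the counts were 7 and 5, and 6 and 4. Of the PGC-1 coactivators, which drive mitochondrial gene programmes, Pprc1 rose by 2.88 ± 0.25 and 3.18 ± 0.30 (adjusted p = 3.63e-06 and 7.89e-06). Ppargc1a rose in young mice (1.65 ± 0.41, adjusted p = 0.00562) and did not pass in aged mice (-0.43 ± 0.44, adjusted p = 0.463). Lpin1, a phosphatidate phosphatase that also coactivates PPAR-alpha, fell (-3.52 ± 0.29 and -3.45 ± 0.32, adjusted p = 2.84e-06 and 6.96e-06), and so did Klf15, a fasting-responsive factor (-2.98 ± 0.31 and -3.47 ± 0.33, adjusted p = 1.43e-05 and 8.97e-06). Hnf4a fell in young mice (-1.43 ± 0.17, adjusted p = 4.57e-05).

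Control by malonyl-CoA, the inhibitor of CPT1A, and by AMP-activated protein kinase, which lowers malonyl-CoA, had 5 of 11 genes higher and none lower in young mice, and 4 higher and 2 lower in aged mice. With library totals alone the counts were 7 higher and 0 lower, and 5 higher and 0 lower, and without young untreated mouse 2 they were 6 and 0, and 5 and 4. The kinase subunit genes Prkab2 (3.26 ± 0.26 and 3.70 ± 0.32, adjusted p = 1.93e-06 and 4.32e-06) and Prkaa1 (1.84 ± 0.14 and 2.05 ± 0.17, adjusted p = 1.35e-06 and 2.63e-06) had the smallest p-values, both higher, and Prkab1 rose by 0.67 ± 0.13 and 0.72 ± 0.14 (adjusted p = 0.00106 and 0.00161). Acacb, which makes malonyl-CoA at the mitochondrion, stayed short of the threshold in young mice at -0.17 ± 0.13 (adjusted p = 0.291) and fell in aged mice (-0.90 ± 0.15, adjusted p = 3.90e-04), though not with library totals alone (-0.29). Acaca (-1.28 ± 0.66 and 0.42 ± 0.76) and Mlycd, the malonyl-CoA decarboxylase gene (0.10 ± 0.13 and 0.20 ± 0.15), did not pass at either age. Mlycd was higher and passed at both with library totals alone (0.61 and 0.80, adjusted p = 0.0181 and 0.00888). Acaca was 8.30 times higher in young untreated mouse 2 than in the rest of its group, and without that library it was higher after caerulein in young mice (0.46, adjusted p = 0.0281).

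Of 6 ketone body genes, 1 was higher, 4 were lower and 1 did not pass at each age (medians -1.14 and -1.49 over the 6). With library totals alone 1 was higher and 3 were lower at each age (medians -0.61 and -0.88). Oxct1 (-1.90 ± 0.15 and -2.24 ± 0.16, adjusted p = 2.08e-06 and 1.41e-06) and Acat1 (-1.59 ± 0.14 and -2.20 ± 0.15, adjusted p = 3.37e-06 and 8.76e-07), which use ketone bodies, fell, and Bdh1 fell too (-2.76 ± 0.63 and -3.35 ± 0.74, adjusted p = 0.00386 and 0.00315). Fatty acid uptake, storage and lipolysis had 7 of 18 tested genes higher and 3 lower in young mice (8 and 1 without young untreated mouse 2), and 7 higher and 1 lower in aged mice (7 and 0 with library totals alone, 8 and 3 without young untreated mouse 2). Fabp5, a fatty acid binding protein, rose by 1.56 ± 0.25 and 2.57 ± 0.30 (adjusted p = 3.23e-04 and 4.11e-05). Hilpda, an inhibitor of lipolysis induced in hypoxia, rose by 1.38 ± 0.26 and 2.47 ± 0.32 (adjusted p = 0.00123 and 8.69e-05), and Abhd5, an activator of the same lipase, by 0.94 ± 0.13 and 1.19 ± 0.15 (adjusted p = 1.19e-04 and 6.50e-05). Plin3, another droplet coat gene, rose by 0.98 ± 0.15 and 1.36 ± 0.17 (adjusted p = 2.00e-04 and 6.58e-05).

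The other uncoupling protein genes Ucp1 and Ucp3 gave few reads. Ucp1, the uncoupling protein of brown fat, had 13 reads at most in any library and Ucp3, that of muscle, 24 at most, and neither was tested. Of 5 related carriers tested, 1 was higher and 2 lower in young mice, and 2 were higher and 1 lower in aged mice, against 2 and 1, and 3 and 0, with library totals alone, and 2 higher and 2 lower in young mice without young untreated mouse 2. Slc25a27 rose (1.98 ± 0.38 and 1.31 ± 0.44, adjusted p = 0.00132 and 0.0294), and Slc25a4, an adenine nucleotide carrier, fell (-0.94 ± 0.22 and -0.72 ± 0.25, adjusted p = 0.00451 and 0.0353), at neither age with library totals alone. Slc25a5, the carrier of the same function in proliferating cells, was at 109 ± 9.29 CPM without and 127 ± 3.48 CPM with caerulein in young mice, and at 129 ± 5.92 and 134 ± 2.49 CPM in aged mice. It did not pass at either age (0.22 ± 0.10 and 0.05 ± 0.12), but was higher and passed at both with library totals alone (0.74 and 0.67, adjusted p = 0.00182 and 0.00728).

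Per length, the order of the 10 genes changed with age and treatment. In FPKM, young untreated mice had Cpt1a (10.3 ± 0.715), Ucp2 (9.83 ± 4.28) and Acadl (9.47 ± 3.19) on top, with ranges that overlapped, and Slc25a20 (0.896 ± 0.537) and Pdp2 (0.695 ± 0.00721) at the bottom, also overlapping. Aged untreated mice kept Cpt1a (5.77 ± 0.701) and Acadl (5.32 ± 1.56) on top, without separation, and had Ucp2 in place 7 at 1.97 ± 0.138. After caerulein Acadl led in both ages, at 16.5 ± 1.83 in young and 16.2 ± 3.26 in aged mice, clear of the next gene, which was Acadvl in young (6.57 ± 0.404) and Cpt1a in aged mice (7.95 ± 0.574). Pdp2 came last after caerulein, at 0.0606 ± 0.0313 and 0.0328 ± 0.0133. Acadm, Hadha and Ucp2 overlapped in sequence in the middle of both caerulein groups.

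Genes with the most similar pattern were sought for Cpt1a, Ucp2 and Pdp2 by the root mean square difference of centred log2(CPM + 0.5) over the 11 libraries, among about 7095 genes with a mean of at least 5 CPM. For Cpt1a the nearest was Pex13, a peroxisomal import gene, at 0.147, with means of 6.25, 4.43, 4.21 and 5.40 CPM in the untreated young and aged and then the caerulein young and aged groups. Atg12 (0.198) followed. For Pdp2 they were Klhdc7a (0.183), Dhrs3 (0.206) and Cbfa2t3 (0.228), each much lower after caerulein, Dhrs3 for example at 24.0, 25.4, 3.41 and 3.05 CPM. For Ucp2 the nearest were Nrp2 (0.442), Sparc (0.472) and Jak3 (0.495). The Ucp2 distances include young untreated mouse 2, at 104 CPM beside 44.6 and 58.3 CPM in its group. They were not computed without that library. These distances are not scaled to a gene's own spread, so they are not compared between the genes. That spread, the root mean square of the centred values, was 0.337 for Cpt1a, 0.857 for Ucp2 and 1.37 for Pdp2. Among the 10 genes themselves the most similar pair was Acadm with Hadha (0.235), while Hadha and Hadhb were at 0.391.

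Between aged and young mice after caerulein, 0 of the 10 genes passed edgeR's test, which called 526 of all genes (3.73%), and from 171 to 1921 when 1 library was left out. Cpt1a and Acadm, 2 of the 10, had an unadjusted p under 0.05, as had 18.2% of all genes, and groups did not overlap for 4 of the 10 (30.9% of all genes). Cpt1a, Acadm and Ucp2 passed without young untreated mouse 2 (0.37, -0.53 and -0.62, adjusted p = 0.0181, 0.0242 and 0.0323), DESeq2 called 1 of the 10, and the authors' deposited table for this comparison lists the same 3 genes below 0.05, 1 higher and 2 lower. Acadl (-0.02 ± 0.24) and Acadvl (0.07 ± 0.12) reached like levels at both ages, within these errors.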

How the data were processed

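Polyadenylated RNA of whole pancreas was sequenced as 150-base read pairs, per the labels' protocols. Per the submitters' processing notes, the authors used HISAT2 2.0.5 against mm10 and featureCounts 1.5.0-p3. Not given in the sources used here are how strand was set, which annotation and filters were used and which tool made the authors' tables. The authors deposited unnormalised read counts, FPKM values, and log2 fold changes with adjusted p-values, per the file headers. The deposited FPKM values imply a library size of 0.696 to 1.33 times the total count, so they were used only for order within a group and for ratios within a library.

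From the counts, genes kept by filterByExpr (4 groups) were scaled by TMM and fitted in edgeR 4.0.16 (R 4.3.3) as 1 model over 11 libraries. Quasi-likelihood tests were adjusted by Benjamini-Hochberg over 14113 genes, and a gene was called below 0.05. Levels are TMM-scaled CPM, errors of log2 changes are SE and those of levels SD. TMM factors were 0.696 to 1.29. Marker sums are CPM of unscaled totals. FPKM ratios were compared by exact permutation tests, and set beside those of all pairs of the 13092 tested genes with FPKM above 0 in every library. The scripts' method was tested on simulated data. The 10 genes and all lists were chosen with earlier results of these data known. Text names the 10 genes, up to 4 genes of smallest p per list and caerulein comparison, 19 fixed genes and the 3 nearest patterns of Cpt1a, Ucp2 and Pdp2, apart from 2 genes that are not reported here. Alternatives were other filters, other scalings, DESeq2 1.42.0, a fit to the compared groups alone, a block for the number of the mouse, and each library left out. Sequences are RefSeq promoters (GRCm38.p6). Positions are whole genes as deposited. Of the 10, Cpt1a has a start in GENCODE M21 that differs from the deposited one, so its upstream sequence is not printed. Reads of overlapping genes on opposite strands cannot be told apart without the strand setting.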

Additional observations from a re-analysis of the deposited data

Results flagged for a closer look

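Cpt1a had opposite caerulein responses at the 2 ages: every young caerulein mouse was below every young untreated mouse, and every aged caerulein mouse above every aged untreated mouse. The aged response minus the young response was 1.24 ± 0.17 on the log2 scale (unadjusted p = 1.56e-05, adjusted p = 0.0598), and this test of the difference did not pass.

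Ucp2 showed the same separation of its libraries, with an aged minus young response of 1.75 ± 0.44 (unadjusted p = 0.00236, adjusted p = 0.18), which did not pass. Young untreated mouse 2, with a Ucp2 level 2.01 times that of the other 2 mice of its group and high B cell, T cell, macrophage and adipocyte markers, is 1 of the 5 untreated libraries behind both values. Without it the differences were 1.16 for Cpt1a (adjusted p = 0.00382) and 1.31 for Ucp2 (adjusted p = 0.0319).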

How the results depend on the processing

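Groups of 2 or 3 mice, 2 to 13 Pdp2 reads per caerulein library and the choice of scaling limit these results. Directions and calls of Acadvl with caerulein held at both ages in all 19 alternatives, as did those of Cpt2 and Pdp2 in young and Acadl in aged mice. Counts of called genes among the 10 stayed within 1.5 times for the 2 caerulein comparisons (5 to 6 in young and 4 to 7 in aged mice when a library was left out), and the 11 ratio comparisons without overlap became at most 12. Pdp2 was known from the aged caerulein contrast, so its part in the aged counts and in the ratios of aged caerulein mice is a description only. Between untreated ages, 2 calls became 1 with DESeq2 size factors and 0 with library totals, with the mouse number as a replicate block and with only the groups compared, and 0 to 2 when a library was left out (2 without young untreated mouse 2). Between ages after caerulein, 0 calls became 1 with no filter, 1 with DESeq2, 3 with only the groups compared and 0 to 3 when a library was left out (3 without young untreated mouse 2). For the difference between responses, 0 calls became 2 with no filter, 2 with DESeq2 and 0 to 2 when a library was left out (2 without young untreated mouse 2). Over all genes, the untreated age comparison called 13, and 707 with no filter, 63 with DESeq2, 55 without young untreated mouse 2, and 3, 3 and 2 with library totals, the block and only the groups compared. The age comparison after caerulein called 526, and 814, 913, 1921, 215, 345 and 1686 in that order, and the difference between responses called 2, and 674, 282, 311 and 0 for the first 4. Leaving out any library but young untreated mouse 2 gave 2 to 14 calls between untreated ages (2 without either aged untreated mouse) and 0 to 4 for the difference. After caerulein it gave 171 to 340 without 1 aged untreated or caerulein library, and 534 and 541 without young untreated mouse 1 or 3. The cause was not tested. Signs that turned all belonged to values that did not pass. With library totals they were Hadhb in young (0.0631) and aged mice (0.303), Slc25a20 (-0.00133) and Acadvl (-0.0448) between ages after caerulein and Acadm in the difference (0.0153), and with only the groups compared Acadm in aged mice (-0.00828). Leaving out 1 library gave ranges across 0 for Acadl (-0.17 to 0.12), Slc25a20 (-0.0664 to 0.251) and Hadha (-0.394 to 0.0127) between ages after caerulein, Acadvl between untreated ages (-0.269 to 0.0507), Acadm in aged mice (-0.0414 to 0.249), and Acadm (-0.236 to 0.0589) and Hadhb (-0.20 to 0.30) in the difference. Same-numbered young mice of the untreated and caerulein groups deviated together with correlations of 0.0933, 0.125 and 0.10. The highest correlations with another number were 0.153, 0.008 and 0.00855. For aged mice 2 and 3 the same-number correlations were 0.00976 and 0.129, against 0.142 and -0.00976 with another number. These values do not settle whether the numbers pair the mice, so the block by number is only an alternative.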
